A study of Mus musculus with 8 samples.

Results

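The genes of fatty acid oxidation and ketogenesis described here are 8 mouse genes, Cpt1a, Cpt2, Acadm, Acadl, Fabp1, Pdk4, Angptl4 and Ppara. They were taken by name from the pathway, with earlier results of these data known. They are 8 of the 16309 genes that could be named on the array. All 8 were measured, by 9 probes, and all 9 probes passed the filter on low signals, as did probes of 12716 genes in all. Fabp1 passed through its colon arrays alone. They lie on chromosomes 1 (Acadl), 3 (Acadm), 4 (Cpt2), 6 (Fabp1 and Pdk4), 15 (Ppara), 17 (Angptl4) and 19 (Cpt1a), and none lies on chromosome 9 with Il18. The samples were mucosa of the rectum, the last 7 mm before the anus, and mucosa of the middle colon, between 2.5 and 3.5 cm from the ileocecum. They came from mice lacking the cytokine gene Il18 (IL18ko) and from wild-type mice (WT), raised as 5 brothers to a cage until 10 to 12 weeks of age. Of the 5 brothers, 3 were then housed alone (stress), and the other mice were controls that were killed before isolation began, so that stressed mice were also older. The labels give isolation as 8 days in one place and as 16 days in another, which could not be settled, and they give no strain or breeding history for either genotype. RNA of 5 mice was pooled for each of these 8 groups and put on 1 array, and no group was repeated.

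Fatty acids reach oxidation in the mitochondrion through a relay of carriers and enzymes. FABP1 binds fatty acids in the cytosol, CPT1A and CPT2 pass long chains across the mitochondrial membranes as carnitine esters, and the acyl-CoA dehydrogenases ACADL and ACADM take the first oxidative step for long and medium chains. The acetyl-CoA that results can be burnt or turned into ketone bodies. PPARα, the product of Ppara, is a nuclear receptor for fatty acids that activates many genes of this pathway. Pdk4 and Angptl4 are well-known targets of PPAR receptors. PDK4 is a kinase that switches off pyruvate dehydrogenase and so spares glucose, and ANGPTL4 is a secreted inhibitor of lipoprotein lipase. In the large intestine, colonocytes oxidise fatty acids, above all butyrate made by gut bacteria, and produce ketone bodies from it.

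All levels below are log2 signals relative to the 75th percentile of the same array, so that a level of 0 equals that percentile, and levels are compared between arrays and never between probes. On each array 62.2% to 66.4% of spots cleared the background by a wide margin, and 0 were saturated. The deleted gene matched the labels: Il18 lay between -7.91 and -7.54 on the 4 IL18ko arrays, none of them well above background, and between 2.68 and 5.81 on the 4 WT arrays. This puts Il18 at least 1212-fold lower in IL18ko mice. Its limma adjusted p of 5.27e-04 was computed from the IL18ko values as they stood, not from this bound. Epithelium of the large intestine was present on every array, with 7 colon epithelium genes all well above background. Their summed linear level was 911 to 1021 in rectum and 867 to 1001 in colon, a sum that does not tell the tissues apart. Of the 7 genes, Cdh1 was called higher in rectum (0.42), Krt20 (-0.62) and Cdh17 (-0.40) lower, and 4 did not pass. Rectum arrays were all on one slide and colon arrays all on another, and the effects of tissue and slide cannot be told apart. Position on the slide likewise went with genotype and housing. A pool of mucosa also cannot tell fewer cells of a type from less RNA per cell.

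Promoter sequence from RefSeq (build GRCm38.p6) was held for 7 of the 8 genes, all except Angptl4. The 3 printed here belong to the genes that were lower in rectum than in colon. Each runs 5′ to 3′ from 250 bases before the transcription start to 50 bases after it, with motif matches in capitals.
Fabp1, chr6:71199629-71199928, plus strand: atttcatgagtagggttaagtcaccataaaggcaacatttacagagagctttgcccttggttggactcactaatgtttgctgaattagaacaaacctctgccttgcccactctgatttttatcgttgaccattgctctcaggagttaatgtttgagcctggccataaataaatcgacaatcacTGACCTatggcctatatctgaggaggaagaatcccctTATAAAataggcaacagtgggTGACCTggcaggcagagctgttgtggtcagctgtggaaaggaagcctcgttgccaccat
Pdk4, chr6:5496229-5496528, minus strand: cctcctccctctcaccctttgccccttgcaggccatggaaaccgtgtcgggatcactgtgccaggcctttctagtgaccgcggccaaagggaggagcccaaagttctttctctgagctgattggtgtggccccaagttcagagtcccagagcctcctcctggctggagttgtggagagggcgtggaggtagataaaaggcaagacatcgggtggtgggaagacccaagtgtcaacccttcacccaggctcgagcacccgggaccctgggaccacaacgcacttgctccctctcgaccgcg
Ppara, chr15:85735526-85735825, plus strand: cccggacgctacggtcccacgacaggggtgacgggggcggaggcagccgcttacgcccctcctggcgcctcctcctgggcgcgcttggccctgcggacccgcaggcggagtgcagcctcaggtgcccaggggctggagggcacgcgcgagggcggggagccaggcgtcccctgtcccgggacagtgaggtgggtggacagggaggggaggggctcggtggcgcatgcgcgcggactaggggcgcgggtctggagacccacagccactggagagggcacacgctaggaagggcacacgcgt
Both strands of each window were searched for 5 motifs. These were the nuclear receptor half-site AGGTCA, its direct repeat with 1 free base between the copies, the glucocorticoid receptor motif (AGAACA, 3 free bases, TGTTCT), the E-box CACGTG and the TATA box TATAAA. Fabp1 held AGGTCA, on the reverse strand as TGACCT, beginning 67 and 9 bases before the start, and TATAAA beginning 30 bases before it, with no overlap between them. The windows of Pdk4 and Ppara held none of the 5 motifs. Cpt1a and Acadm each held 1 half-site, beginning 94 and 249 bases before the start. Of all 32851 promoter windows, 16.255% held AGGTCA, 13.616% held TATAAA, 7.15% held CACGTG, 0.04% held the direct repeat and 0.009% held the glucocorticoid motif. GC content was 45.0% for Fabp1, 60.7% for Pdk4 and 74.7% for Ppara, beside a median of 52.7% over all windows. A match is a run of letters and not a measured binding site.

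The comparison of rectum with colon gave the clearest differences among these genes. Ppara, Pdk4 and Fabp1 were lower in rectum in all 4 matched pairs, by 2.60-fold, 5.65-fold and at least 19.1-fold. The enzymes of the oxidation steps themselves, Cpt1a, Cpt2, Acadm and Acadl, did not pass the test, nor did Angptl4. Thus 0 of the 8 genes were higher, 3 lower and 5 not passing, where 15.1% of the 12716 tested genes were called higher and 15.3% lower (30.4% in either direction). The same 3 genes were those whose rectum and colon levels did not overlap with rectum lower, which held for 15.6% of tested genes. For Fabp1, both counts rest on rectum values that were not well above background. Without adjustment 5 of the 8 had a p under 0.05, as did 42.8% of tested genes. The median difference was -0.54 over the 8 genes and 0.05 over all tested genes.

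**Figure D1:**
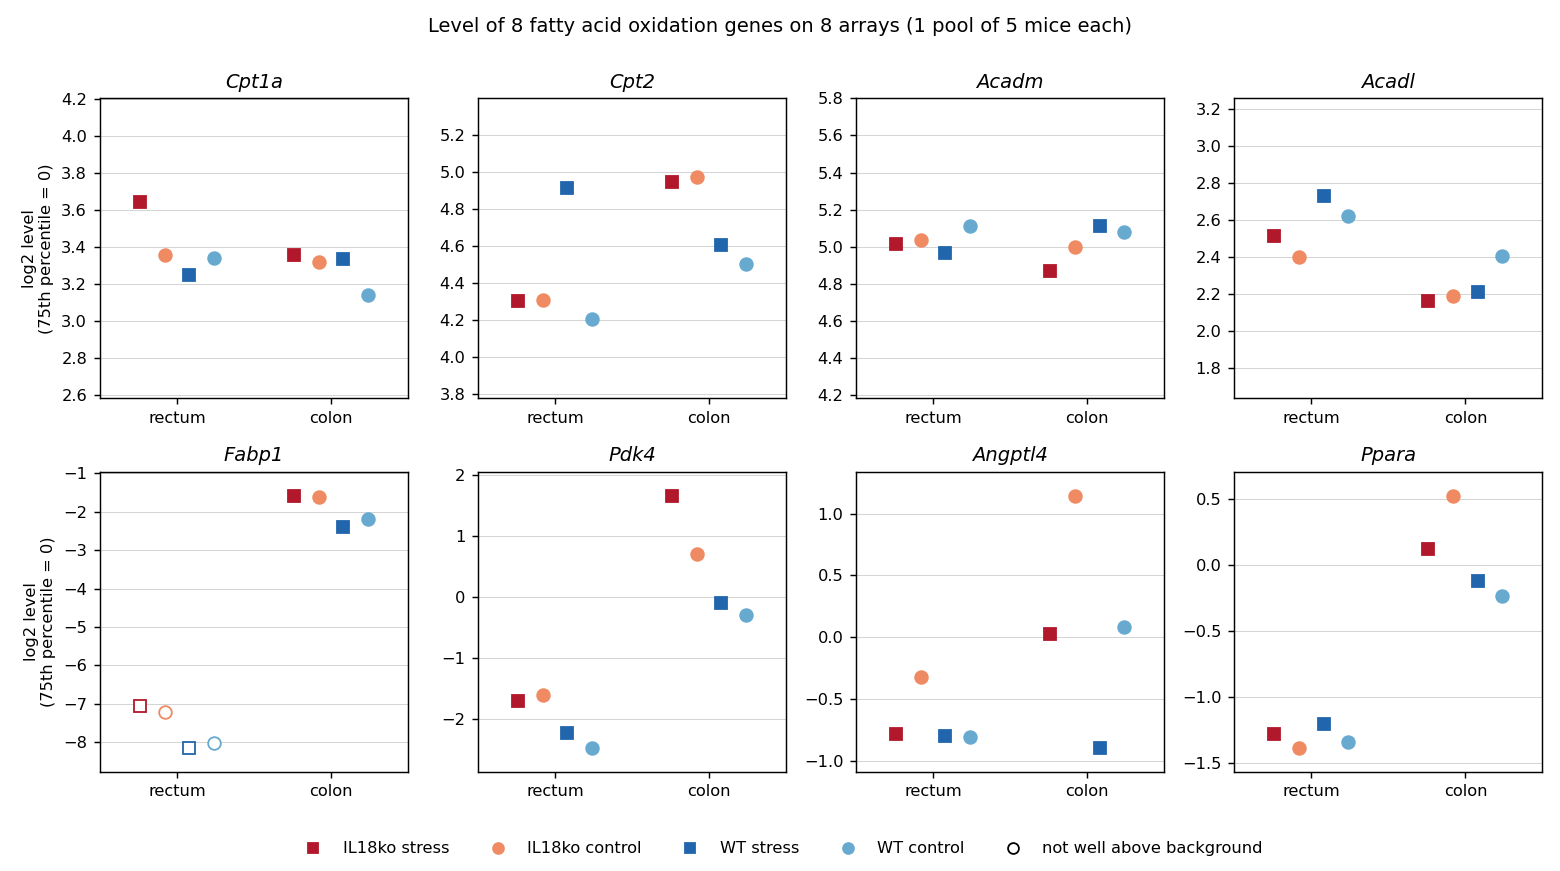
Levels of the 8 genes on each of the 8 arrays. Each panel is 1 gene, the vertical axis is the log2 level relative to the array's 75th percentile, points are single arrays of pooled RNA with rectum left of colon (red for IL18ko, blue for WT, squares for stress, circles for control), and open points mark signals not well above background. Ppara, Pdk4 and Fabp1 sit lower on every rectum array than on any colon array, while the tissues overlap for the other 5 genes.

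The receptor gene Ppara was at -1.28 in IL18ko stress, -1.38 in IL18ko control, -1.21 in WT stress and -1.34 in WT control rectum. In colon it was at 0.12 in IL18ko stress, 0.53 in IL18ko control, -0.12 in WT stress and -0.23 in WT control mice. The 4 rectum arrays lay within a narrow band below all colon arrays, and the spread was on the colon side. The mean difference, rectum minus colon, was -1.38 ± 0.16 (log2, SE from limma, n = 4 pairs, adjusted p = 0.00145 over 26263 probes), with pairs between -1.91 and -1.09.

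Pdk4, the brake on pyruvate dehydrogenase, was at -1.70 in IL18ko stress, -1.60 in IL18ko control, -2.22 in WT stress and -2.47 in WT control rectum. In colon its levels were 1.67 in IL18ko stress, 0.72 in IL18ko control, -0.10 in WT stress and -0.29 in WT control mice. No rectum array reached the lowest colon array, and in both tissues both IL18ko arrays lay above both WT arrays. The difference was -2.50 ± 0.22 (log2, SE, n = 4 pairs, limma adjusted p = 4.61e-04), with pairs between -3.37 and -2.12.

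The fatty acid binding protein gene Fabp1 was not well above background on any rectum array, where its values were -7.06 in IL18ko stress, -7.22 in IL18ko control, -8.15 in WT stress and -8.02 in WT control mice. In colon it was well above background, at -1.58 in IL18ko stress, -1.62 in IL18ko control, -2.39 in WT stress and -2.18 in WT control mice. Rectum therefore has only an upper bound. Measured against the dimmest signals well above background on the rectum arrays, Fabp1 was at least 19.1-fold lower in rectum. It met the filter on low signals through its 4 colon arrays alone. The limma adjusted p of 7.49e-06 was computed from the rectum values as they stood, not from this bound. With model-based background correction (normexp) on all spots the call was lost, at -0.91 with a limma adjusted p of 0.550. It passed in 14 of the 15 alternatives that could test it.

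Angptl4, the lipoprotein lipase inhibitor, was at -0.78 in IL18ko stress, -0.32 in IL18ko control, -0.80 in WT stress and -0.81 in WT control rectum. On colon arrays it was at 0.03 in IL18ko stress, 1.15 in IL18ko control, -0.90 in WT stress and 0.08 in WT control mice. The WT stress colon array lay below every rectum array, so the tissues overlapped, and the other colon arrays were higher than any rectum array. The difference was -0.77 ± 0.24 (log2, SE, n = 4 pairs, limma adjusted p = 0.0558), with pairs between -1.47 and 0.10.

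Of the carnitine transferases, Cpt1a, which loads long-chain fatty acids onto carnitine, was at 3.64 in IL18ko stress, 3.36 in IL18ko control, 3.25 in WT stress and 3.34 in WT control rectum. Colon arrays had it at 3.36 in IL18ko stress, 3.32 in IL18ko control, 3.33 in WT stress and 3.14 in WT control mice. All 8 arrays fell within 0.50 log2 units and the tissues overlapped. The difference was 0.11 ± 0.10 with the brighter probe and 0.13 ± 0.15 with the other (log2, SE, n = 4 pairs, limma adjusted p = 0.468 and 0.586).

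Cpt2, which releases the fatty acid from carnitine on the inner membrane, was at 4.30 in IL18ko stress, 4.31 in IL18ko control, 4.92 in WT stress and 4.21 in WT control rectum. Colon levels were 4.95 in IL18ko stress, 4.97 in IL18ko control, 4.61 in WT stress and 4.50 in WT control mice. The WT stress rectum array stood well above the other rectum arrays, and its pair was the only one with Cpt2 higher in rectum. The difference over the 4 pairs was -0.32 ± 0.17 (log2, SE, limma adjusted p = 0.215), and without the WT stress pair it was -0.53 and passed (adjusted p = 0.00301).

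Of the dehydrogenase genes, Acadm, for medium chains, was at 5.01 in IL18ko stress, 5.03 in IL18ko control, 4.96 in WT stress and 5.11 in WT control rectum. Colon levels were 4.87 in IL18ko stress, 5.00 in IL18ko control, 5.11 in WT stress and 5.08 in WT control mice. The levels of the tissues were interleaved, and the difference was 0.02 ± 0.09 (log2, SE, n = 4 pairs, limma adjusted p = 0.917), a sign that turned with quantile normalization and with normexp. Acadl, for long chains, was at 2.51 in IL18ko stress, 2.40 in IL18ko control, 2.73 in WT stress and 2.62 in WT control rectum. In colon it was at 2.16 in IL18ko stress, 2.19 in IL18ko control, 2.21 in WT stress and 2.41 in WT control mice. Acadl was higher in rectum in 4 of 4 pairs, although the lowest rectum level, 2.40, lay just under the highest colon level, 2.41. The difference of 0.32 ± 0.10 (log2, SE, n = 4 pairs) missed the threshold with a limma adjusted p of 0.0559.

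The calls of Ppara and Pdk4 held in every alternative tried. Without the WT stress pair, Acadl and Angptl4 passed as well as Cpt2, which made 6 genes called, and Acadl and Angptl4 also passed in a model of the 8 arrays without pairs, which made 5. No share over all tested genes was computed for these fits, and the number of probes called also shifted with the pair left out. The WT stress pair was the one in which Cpt2 and Angptl4 were higher in rectum.

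**Figure D2:**
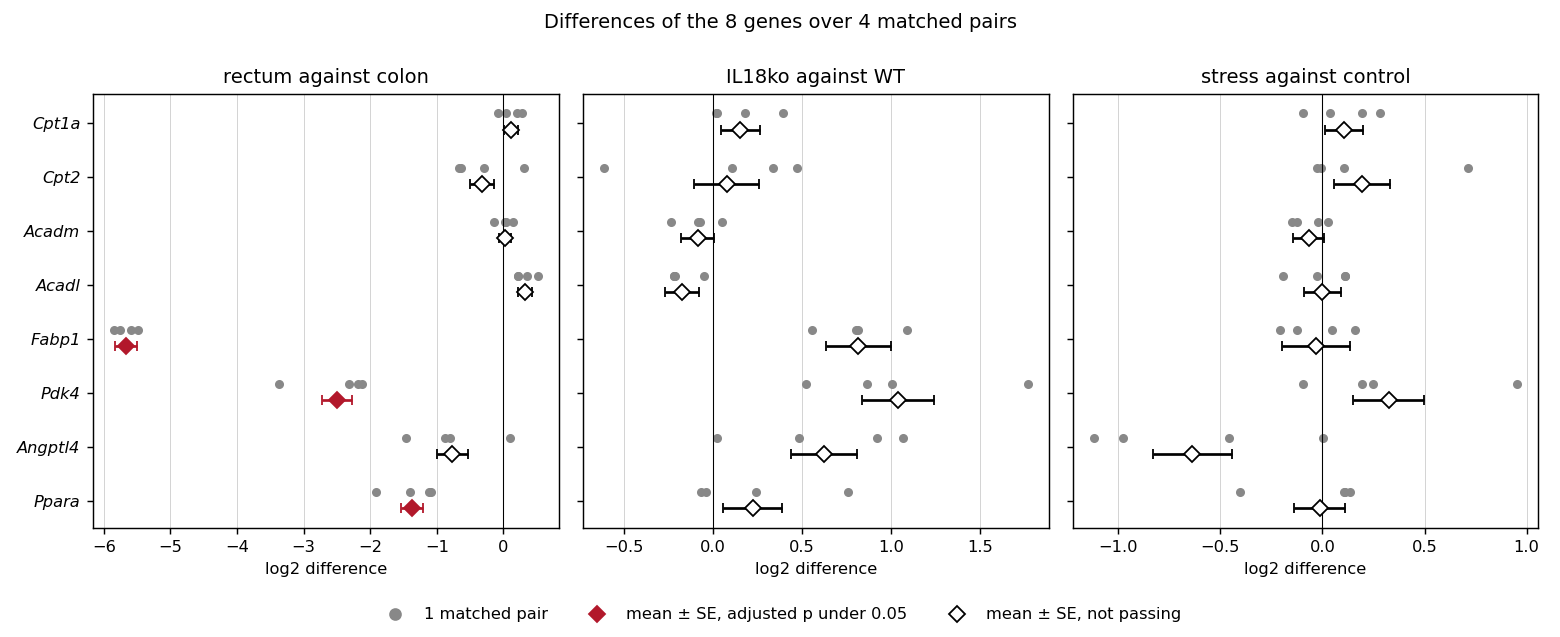
Differences of the 8 genes in 3 comparisons, rectum minus colon, IL18ko minus WT and stress minus control. The horizontal axis is the difference in log2 units, small points are the 4 matched pairs, large points their mean with the standard error from limma, and filled symbols passed an adjusted p of 0.05. Ppara, Pdk4 and Fabp1 passed in rectum against colon, and no gene passed in the other comparisons.

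Around the 8 genes, 98 other genes of the pathway were tested of 110 listed. Of these, 10 were higher in rectum, 21 lower and 67 did not pass, with a median of -0.16. Over all 12716 tested genes 15.1% were called higher and 15.3% lower, 30.4% in either direction, so calls in the lists below were common on the array as a whole. Of 28 genes of mitochondrial import and β-oxidation, 1 was higher and 4 lower (median -0.16). The higher one was Acsl1, which activates long-chain fatty acids, at 0.87 ± 0.22. Those lower were Acads, the short-chain dehydrogenase, at -0.69 ± 0.11, the electron transfer flavoprotein subunits Etfb (-0.57) and Etfa (-0.55), which accept electrons from the dehydrogenases, and the isomerase Eci1 (-0.43). Among 14 peroxisomal genes 0 were higher and 2 lower (median -0.27), the oxidase Acox2 (-1.26 ± 0.23) and the transporter Abcd3 (-0.72).

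Of 11 genes of ketone body synthesis and use, 3 were higher and 3 lower in rectum (median -0.12). Slc16a7, which encodes a monocarboxylate transporter that carries ketone bodies, was at -3.15 in IL18ko stress, -3.06 in IL18ko control, -3.09 in WT stress and -3.25 in WT control rectum. In colon it was at -1.14 in IL18ko stress, -1.42 in IL18ko control, -0.86 in WT stress and -0.76 in WT control mice. The tissues did not overlap, and Slc16a7 was 4.26-fold lower in rectum (-2.09 ± 0.16 log2, SE, n = 4 pairs, limma adjusted p = 2.75e-04). The genes that were higher were Oxct1, for the enzyme that lets tissues burn ketone bodies (0.60 ± 0.13), and the monocarboxylate carriers Slc5a8 (0.74 ± 0.18) and Slc16a1 (0.56 ± 0.14).

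Fatty acid uptake and binding had 0 genes higher and 3 lower of 11 tested (median -0.13). The intestinal fatty acid binding protein gene Fabp2 was lowest, with levels from 1.59 to 2.59 on rectum arrays and from 7.45 to 7.63 on colon arrays. It fell by 5.49 ± 0.19, and Slc27a4, a fatty acid transport protein, fell by 1.03 ± 0.19 (log2, SE). Lpl, the lipase that ANGPTL4 inhibits, fell by 1.88 ± 0.23. Among 10 PPAR receptors, partners and coregulators, 2 were higher, 1 lower and 7 did not pass (median 0.09). The lower one was the receptor gene Pparg, with levels from 2.29 to 2.54 on rectum arrays against 3.55 to 3.93 on colon arrays (-1.26 ± 0.11). The coactivator Ppargc1a (0.88 ± 0.18) was among the higher ones, and the receptor Ppard, at 0.41 ± 0.22, did not pass.

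Of 14 other genes known to respond to PPAR receptors, 2 were higher and 7 lower in rectum (median -0.53). Among the lower ones were the lipid droplet proteins Cidec (-2.47 ± 0.26) and Cidea (-1.42 ± 0.12), the pantetheinase Vnn1 (-2.22 ± 0.28), the fatty acid hydroxylase Cyp4a14 (-1.29 ± 0.30) and the transcription factor Creb3l3 (-0.74). Cyp4a14 cleared the background on 1 rectum array of 4, which leaves its size uncertain. Plin2, which coats lipid droplets, was higher at 0.93 ± 0.10. The 10 tested genes of pyruvate dehydrogenase and malonyl-CoA control had 2 higher and 1 lower (median -0.18). Pdk1, a kinase of the same family as Pdk4, was higher in rectum by 1.23 ± 0.12, with 0.96 to 1.38 on rectum arrays and -0.23 to 0.02 on colon arrays, while Pdk3 was lower (-0.47 ± 0.11). The phosphatase Pdp1, which undoes the action of these kinases, was higher by 1.0 ± 0.11. Of 11 glucocorticoid-responsive genes, taken because Pdk4 and Angptl4 also respond to glucocorticoids, 6 were higher and 1 lower (median 0.51), with Mt2 at 0.86, Per1 at 0.78, Mt1 at 0.69, Ddit4 at 0.67 and Sgk1 at -0.63.

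**Figure D3:**
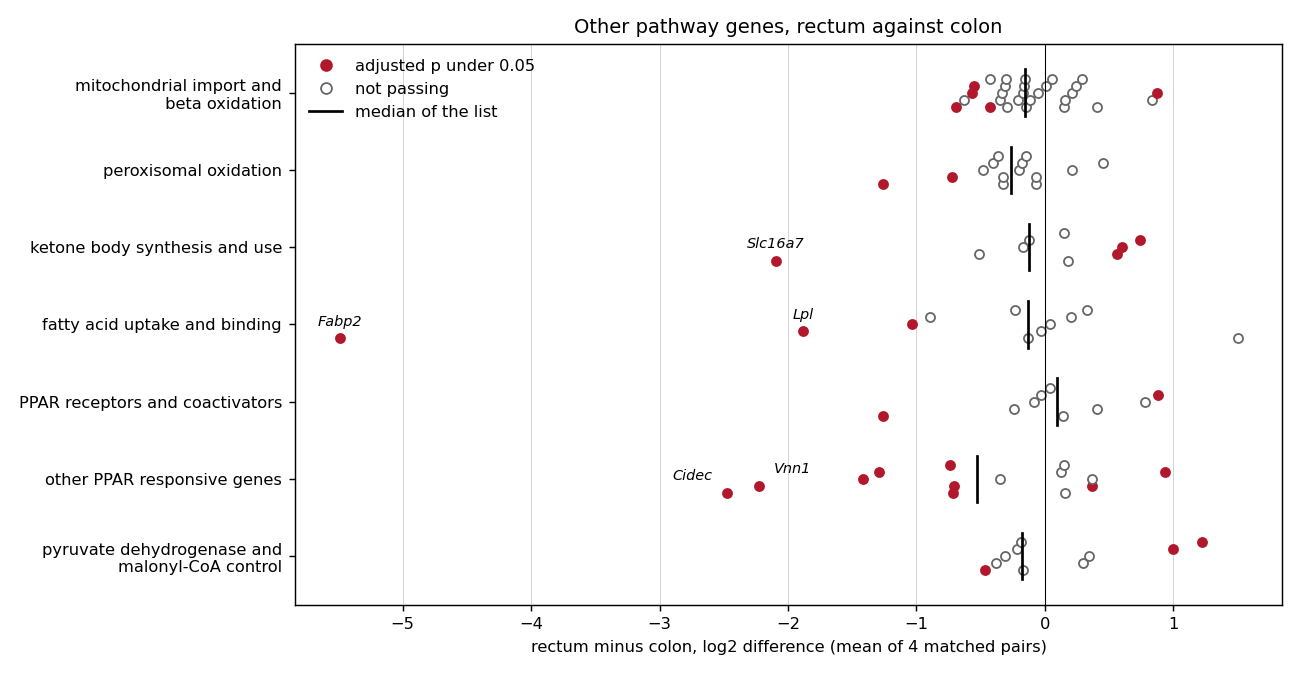
Rectum minus colon differences of the other pathway genes in 7 lists. The horizontal axis is the difference in log2 units, each row is a list, each point a gene, filled points passed an adjusted p of 0.05, and the vertical bar is the median of the list. Some list members counted in the medians are not drawn. Fabp2 lies far below the median of its list, at -5.49.

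**Figure D4:**
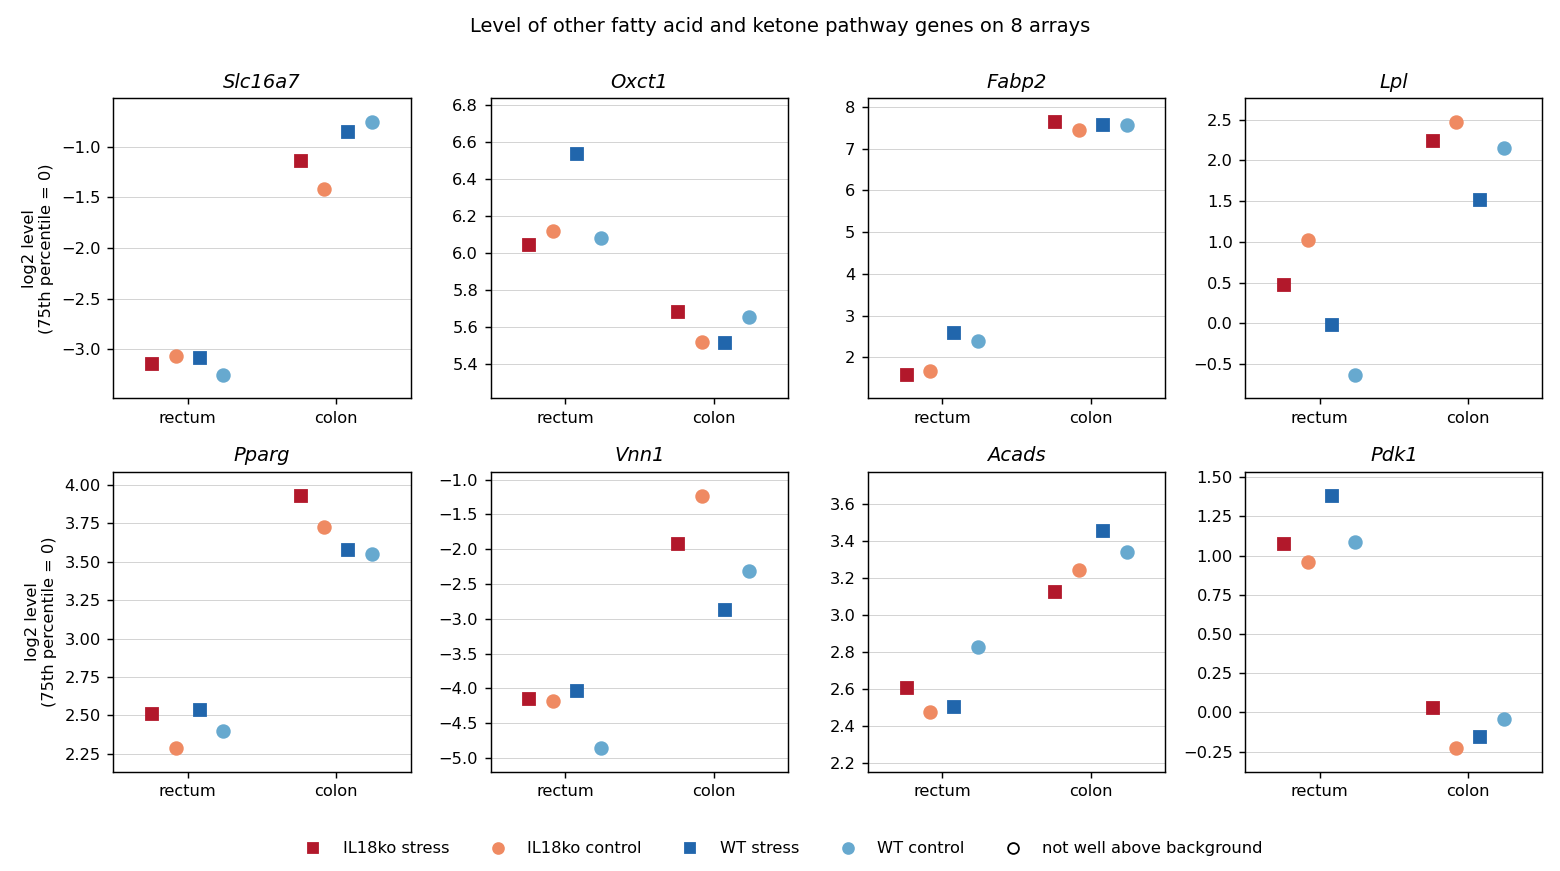
Levels on each array of genes around the 8, in log2 units relative to the array's 75th percentile, with rectum arrays left of colon arrays. Each panel is 1 gene and each point 1 array of pooled RNA. Slc16a7, Fabp2, Lpl and Pparg are lower on every rectum array than on any colon array, and Pdk1 is higher on every rectum array.

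Marker genes of other cell types also differed between the tissues. The summed linear level of 8 adipocyte genes was 13.6 to 34.0 on rectum arrays and 25.8 to 50.1 on colon arrays, and 6 of the 8 were called lower in rectum, Adipoq at -2.09 and Cidec among them. Adipoq was well above background on every array, and 7 or 8 of the 8 genes were so on each. The sum over 10 skeletal muscle genes was 6.61 to 159.7 in rectum, highest on the IL18ko control array, against 3.17 to 5.65 in colon, and 7 of them were called higher. Markers of small intestine type enterocytes summed to 3.04 to 6.06 in rectum and 175 to 198 in colon, nearly all of it Fabp2, and Fabp2 was above background on all 8 arrays, with 2 of the 4 genes above it on each array. Of the 2 tested genes of this list, Fabp2 was called lower in rectum and Mttp higher (0.69 ± 0.20, limma adjusted p = 0.0479). Mttp cleared the background on 2 of 4 colon arrays, and the sum thus rests on 1 gene. Squamous epithelium markers summed to 2.95 to 5.07 in rectum and 1.65 to 2.03 in colon. Absorptive colonocyte markers, 5 genes, summed to 433 to 451 in rectum and 451 to 568 in colon. Of these, 2 were called higher in rectum, 2 lower and 1 did not pass, with Ceacam1 at -1.65 and Car4 at 0.96. The part of these cells in the differences of Ppara, Pdk4 and Fabp1 was not tested. Hepatocyte markers, checked because Fabp1 is abundant in liver, summed to 0.251 to 0.451 on rectum arrays and 0.0749 to 0.123 on colon arrays. Of these 3 genes, Ttr was called higher in rectum (3.06 ± 0.16, limma adjusted p = 6.41e-05) and the other 2 did not pass. Their part in the values of Fabp1 was not tested.

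The comparison of genotypes asked whether these genes depend on Il18. None of the 8 passed in limma (0 of 8, where 0.0472% of tested genes were called), and the test called 13 of 26263 probes in all. Without adjustment, 3 of the 8 had a p under 0.05, Pdk4, Fabp1 and Angptl4, as did 17.4% of tested genes and 4298 probes. Pdk4, Angptl4, Fabp1 and Cpt1a were higher in IL18ko mice in all 4 pairs, which is 50% of the genes beside 12.1% of all tested genes. For Fabp1 this includes both rectum pairs, where no signal was above background, and the second probe of Cpt1a was lower in stressed colon (-0.24) and control rectum (-0.10). Acadl alone was lower in all 4, as were 15.6% of tested genes. The median difference was 0.19 over the 8 genes and -0.01 over all tested genes.

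Pdk4 had the largest difference, 1.04 ± 0.20 (log2, IL18ko minus WT, SE, n = 4 pairs, limma adjusted p = 0.188). By pair it was 0.52 in stressed rectum, 0.86 in control rectum, 1.77 in stressed colon and 1.0 in control colon. Every pair had the same sign, and the stressed colon pair was the widest. Fabp1 differed by 0.81 ± 0.18 (adjusted p = 0.189), but its rectum values are below background. Normexp on all spots, 1 of 16 alternatives, turned the difference to -1.34. In colon alone its levels of -1.58 and -1.62 in IL18ko mice, against -2.39 and -2.18 in WT mice, differed by 0.68 on average.

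Angptl4 differed by 0.62 ± 0.19 (adjusted p = 0.211). Its pairs were 0.02 in stressed rectum, 0.48 in control rectum, 0.92 in stressed colon and 1.07 in control colon, so that both colon pairs were wider than both rectum pairs. Ppara, at 0.22 ± 0.16, was higher in IL18ko in both colon pairs, by 0.24 under stress and 0.76 in controls, and near equal in rectum, at -0.07 and -0.04. The remaining genes differed little, with Cpt1a at 0.15 ± 0.11, Cpt2 at 0.07 ± 0.18, Acadm at -0.09 ± 0.09 and Acadl at -0.18 ± 0.10 (limma adjusted p from 0.413 to 0.871). The sign of Cpt2 turned without either colon pair, and that of Acadm turned with quantile normalization.

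These calls depended on the fit. Colon and rectum pools of a mouse group may come from the same mice, so the 4 pairs may be fewer than 4 independent ones. When colon and rectum of a mouse group were averaged first, 1 residual degree of freedom was left. That fit called 3038 of 26263 probes, against 13 in the main fit. Among them were 3 of the 8 genes, higher in IL18ko mice, Pdk4 (limma adjusted p = 1.66e-04), Angptl4 (0.00562) and Fabp1 (0.0321, with the same limit of its rectum values). Without the stressed rectum pair 2441 of 26263 probes were called, the same 3 genes among them. Their limma adjusted p was 0.0294 for Pdk4, 0.0294 for Angptl4 and 0.0414 for Fabp1. No share over all tested genes was computed for either fit, so the 3 genes cannot be set against it.

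Of the 98 other pathway genes 0 were called between genotypes, with a median of 0.00. The values farthest from 0 were those of the retinoid receptor Rxrg (1.32 ± 0.33), Cidec (1.28 ± 0.26) and Creb3l3 (1.22 ± 0.24), with limma adjusted p from 0.188 to 0.189. Lpl was at 0.79 ± 0.22 and Vnn1 at 0.65 ± 0.22, while Cyp4a14 was at -0.90 ± 0.34. Cyp4a14 cleared the background on only 2 IL18ko and 3 WT arrays, which leaves its size uncertain. Adipocyte markers, Cidec again among them, were also higher in IL18ko mice, with a median of 1.38 and 0 of 8 called. Their sum was 31.4 to 34.0 in IL18ko rectum against 13.6 to 21.6 in WT rectum, and 47.0 to 50.1 in IL18ko colon against 25.8 to 38.2 in WT colon. Skeletal muscle markers had a median of 1.03, with sums of 35.4 to 159.7 in IL18ko rectum against 6.61 to 21.3 in WT rectum, and 3.17 to 4.86 in IL18ko colon against 3.56 to 5.65 in WT colon. The smooth muscle markers, 5 genes, summed to 503 to 691 on IL18ko arrays and 421 to 526 on WT arrays. Absorptive colonocyte markers summed to 559 to 568 in IL18ko colon against 451 to 496 in WT colon, and to 438 to 451 in IL18ko rectum against 433 to 439 in WT rectum. The part of these cells in the values of Pdk4, Angptl4 and Lpl was not tested.

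The comparison of housing asked whether isolation changes these genes. None of the 8 passed (0 of 8, where 0% of tested genes and 0 of 26263 probes were called in limma). Before adjustment, 1016 probes had a p under 0.05, and so did 3.67% of tested genes and, of the 8, Angptl4. None of the 8 genes moved the same way in all 4 pairs, as 8.86% of tested genes did upwards and 5.65% downwards. The median difference was -0.01 over the 8 genes and 0.03 over all tested genes.

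Angptl4 had the largest difference, -0.64 ± 0.19 (log2, stress minus control, SE, n = 4 pairs, limma adjusted p = 0.866). By pair it was -0.46 in IL18ko rectum, 0.00 in WT rectum, -1.12 in IL18ko colon and -0.97 in WT colon. The colon pairs carried most of the difference. Of 8 adipocyte markers 0 were called, with a median of -0.18. Lep (-0.79), Adipoq (-0.71), Retn (-0.64) and Cidec (-0.18) were lower under stress in all 4 pairs. Lep cleared the background on only 2 rectum and 3 colon arrays, so some of its pairs rest on unmeasured values. The other markers are not named here, and the summed level of the 8 moved both ways. From control to stress the sum rose in WT rectum (13.6 to 21.6) and IL18ko colon (47.0 to 50.1). It fell in IL18ko rectum (34.0 to 31.4) and WT colon (38.2 to 25.8). The part of adipocytes in the value of Angptl4 was not tested. Pdk4 differed by 0.32 ± 0.17 (adjusted p = 0.866), with -0.09 in IL18ko rectum, 0.25 in WT rectum, 0.95 in IL18ko colon and 0.19 in WT colon. The IL18ko colon pair stood apart from the other 3. Cpt2 was at 0.20 ± 0.14, of which the WT rectum pair gave 0.71 and the others between -0.03 and 0.10. The other 5 genes lay between -0.07 and 0.11, with standard errors up to 0.17. Of the 98 other pathway genes 0 were called (median 0.01), and the widest were Ppard at 0.38 ± 0.18, Cpt1b at -0.35 ± 0.23 and Acox2 at 0.33 ± 0.16. Of the 11 glucocorticoid-responsive genes 0 were called, with a median of -0.01.

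Whether a difference depended on tissue or genotype was tested for all 8 genes, with 2 residual degrees of freedom, and 0 passed in limma (0% of tested genes called, in each of 3 tests). For Angptl4 the genotype difference was 0.25 in rectum and 0.99 in colon, a gap (rectum minus colon) of -0.74 ± 0.28 (adjusted p = 0.832). Its stress difference was -0.23 in rectum and -1.05 in colon, a gap of 0.82 ± 0.28 (adjusted p = 1.0). The genotype difference of Pdk4 was 0.69 in rectum and 1.39 in colon, a gap of -0.69 ± 0.34 (adjusted p = 0.832). The unadjusted counts in these tests were 752, 252 and 393 of 26263 probes, for genotype by tissue, stress by tissue and stress by genotype.

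The profiles over the 8 arrays were also set against those of 11792 genes well above background on every array. Likeness was the root mean square difference between log2 profiles, each centred on its own mean. Nearest to Ppara was Wif1, a secreted inhibitor of Wnt signals, at 0.0861, followed by Gfod2 (0.150) and Pex5l (0.151). Nearest to Pdk4, whose own range was 4.14, were Esm1, a proteoglycan secreted by endothelium, at 0.374, Iqsec3 (0.375) and Bmp8b (0.378). For Angptl4 they were Pbx4 (0.226), Hspa1a (0.350) and Cib2 (0.361). None is given for Fabp1, whose rectum values were not above background. The flat profiles of Cpt1a, Cpt2, Acadm and Acadl lay within 0.0747 of their 3 nearest genes, led by Rsc1a1, Spsb2, Park7 and Rab7.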

How the data were processed

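RNA of 8 pools, each of 5 mice, was measured on 1-colour Agilent whole mouse genome arrays. Per the file headers, the intensity of each spot was extracted and background-corrected by Feature Extraction 9.5.1.1 and is a linear value. The value table deposited by the authors holds, per the labels, each array's ratio to WT control colon. Over 18277 features its log2 values followed those computed here from the scanner intensities, with r between 0.995 and 1.0. Its column medians ran from -0.03 to 0.16 in log2, and how the authors scaled it is not given in the sources used here. It was used as an alternative.

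Outlier spots were dropped and spots of a probe averaged, which left 40963 of 41174 probes. Transcript accessions matched to RefSeq named 22857 probes for 16309 genes, and 18106 had no name. The log2 intensity was set relative to the 75th percentile of its array. Tested were probes that cleared the background on 4 or more of the 8 arrays (26263 probes), and the brightest probe stood for a gene. limma 3.58.1 in R 4.3.3 was fitted to 4 matched pairs per comparison, with the pair as a block and a variance trend, which left 3 residual degrees of freedom. Whether the same mice gave both tissues is not in the labels. For genotype and for housing the 4 pairs may therefore be fewer than 4 independent ones. Each pool is 1 sample, so the spread is that of the differences across unlike groups and not of repeats of a group. Any dependence of a difference on tissue, genotype or housing is part of that spread. Calls needed a Benjamini-Hochberg adjusted p under 0.05 over all tested probes. The test was checked on simulated data with known changes added. Of changes of 1 log2 unit it found 46% to 54% in the main comparisons. In the tests of dependence on tissue or genotype it found 0% to 2% of them. For changes of 2 log2 units these shares were 90% to 92% and 36% to 46%. A probe above background on no array of a group has a bound, set on each array at the dimmest signal well above background. Pairs were matched by the labelled tissue, genotype and housing.

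Named were all 8 genes, up to 6 called genes of each list with the largest difference or, where none was called, those with the largest values over the lists, the 3 nearest profiles for each gene above background on all arrays, and Il18, except that some list genes are not reported here. Other pathway genes (Ppard, Vnn1, Lpl and Cyp4a14 where not called) were picked after their values were seen. The members and lists were chosen with earlier results of these data known. Alternatives were quantile normalization, median centring, normexp background (offset 50), the deposited ratios, other filters, a shared floor, fits with no variance trend or robust ones, the mean of a gene's probes, other designs and leaving out pairs. Tables and figures used pandas 2.3.3, numpy 2.4.6 and matplotlib 3.10.9 under Python 3.11.15.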

Additional observations from a re-analysis of the deposited data

Results flagged for a closer look

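In 4 of 24 combinations of a gene and a dependence on tissue or genotype, both pairs of one side moved one way and both pairs of the other side moved the opposite way. Each side has 2 pairs, and the test of the difference itself passed for none of the 24 in limma. The IL18ko minus WT difference of Ppara was -0.07 and -0.04 in rectum and 0.24 and 0.76 in colon, a gap of -0.56 ± 0.29 (log2, SE, limma adjusted p = 0.832). The stress minus control difference of Acadl was 0.11 in both rectum pairs and -0.19 and -0.02 in colon, a gap of 0.22 ± 0.23. The stress difference of Cpt2 was -0.03 and -0.01 in IL18ko and 0.10 and 0.71 in WT mice, a gap of -0.42 ± 0.25. That of Fabp1 was 0.05 and 0.16 in IL18ko and -0.21 and -0.13 in WT mice, a gap of 0.27 ± 0.36, and its rectum values are below background. The last 3 had limma adjusted p of 1.0.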

How the results depend on the processing

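Ppara and Pdk4 were called lower in rectum in every alternative. Fabp1 was so in all that could test it except normexp on all spots (-0.91, limma adjusted p = 0.550). The filter for all 8 arrays removed Fabp1. The pairs in all fits are matched groups, since the labels carry no replicate numbers. Leaving out 1 pair gave 3 to 6 of the 8 genes between tissues, with 6 without the WT stress pair, 18 to 59 other pathway genes (31 with all pairs; 59 without WT stress, 20 without WT control, 18 without IL18ko control) and 3508 to 10715 probes (7218 with all pairs; 3508 without WT control, 3795 without IL18ko control). The model without pairs and normexp without far-off spots each called 5 of the 8. No share over all tested genes was computed for any of these fits, so these counts of the 8 cannot be set against it. Normexp on all spots was set by 15 values on 3 arrays more than 50 units under local background; the alternative without them was chosen after seeing the data. With all spots it called 1754 probes and 12 pathway genes between tissues, 2095 probes and 14 pathway genes between genotypes and 6 probes for stress.

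Between genotypes 13 probes became 6 with the deposited ratios, 7 with the filter for all arrays, 32 without pairs and 3038 on tissue means (with 3 of the 8 genes and 11 pathway genes). Leaving out 1 pair gave 3 to 2441 probes, 0 to 3 of the 8 genes and 0 to 14 pathway genes, namely 3 probes without control colon, 4 without control rectum, and 2441 probes, 3 genes and 14 pathway genes without stressed rectum. For stress, tissue means called 23 probes, and leaving out a pair called 0. The cause of these shifts was not tested, beyond the spots named.

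Signs turned for small or low values. Between tissues Acadm was -0.0436 with quantile normalization and -0.206 with normexp, and ran from -0.0263 (without IL18ko stress) to 0.0696 when 1 pair was left out, and Cpt1a was -0.141 with normexp. Between genotypes normexp gave 0.481 for Acadm, 0.262 for Acadl, -1.34 for Fabp1 and -0.102 for Ppara, and quantile normalization gave 0.00394 for Acadm. Leaving out 1 pair took Cpt2 over -0.0568 (without control colon), -0.0131 (without stressed colon) and up to 0.304. For stress, Acadl was -0.0381 with quantile normalization, -0.0100 with median centring and -0.0277 with normexp, and from -0.0362 to 0.0649 without 1 pair (below 0 without either rectum pair). Ppara was 0.0660 with normexp, 4.87e-04 without its far-off spots and 0.00996 with deposited ratios, and from -0.0626 to 0.117 without 1 pair (above 0 without IL18ko colon). Fabp1 was 0.0511 with the trimmed normexp and from -0.0962 to 0.0269 without 1 pair (above 0 without WT colon). With quantile normalization the tissue dependence of the genotype difference of Acadl was 0.00985 and the genotype dependence of the stress difference of Acadm was 0.0547. With 1 pool per combination, the number of arrays limits precision, and Fabp1 in rectum is limited by signal over background.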
